A study of Mus musculus with 6 samples.

Results

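The genes of the unfolded protein response and the integrated stress response were followed as a list of 54 mouse genes, chosen by name as a pathway, in RNA-seq of whole lenses of newborn (P0) mice. Of these, 52 were among the 13931 genes of the table. Cebpb and Derl3 are not in it, and Ero1l and Ero1lb were matched by gene identifier and are listed there as Ero1a and Ero1b. The average level was above 1 log2 CPM (CPM being a gene's reads relative to the normalized library size) for 49 of the 52 genes, and Atf3, Trib3 and Sdf2l1 were below it. The study compared 3 Celf1cKO libraries with 3 control libraries, each made from a pool of 2 lenses. Celf1 encodes an RNA-binding protein that controls the splicing, stability and translation of its target mRNAs. Celf1cKO lenses carried a Celf1lacZKI germline null allele and a floxed Celf1 allele targeted by Pax6GFPCre. This Cre recombinase is expressed in the lens placode and the lens that forms from it. The study reports that the floxed exon remained in part of the Celf1 transcripts of Celf1cKO lenses. By their genotype label the control lenses were Celf1lacZKI/+, which would put the null allele in both groups. The study's methods describe control mice in general as carrying floxed Celf1 and no Cre, and which of these the control lenses were is not settled. Neither description of the controls includes the Cre, so its effects cannot be told apart from those of Celf1 loss. The study states that mice heterozygous for this Cre had earlier shown no lens defects. The mice were of a mixed background.

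Proteins that misfold in the endoplasmic reticulum (ER) are sensed by 3 membrane proteins, PERK (encoded by Eif2ak3), IRE1 (Ern1) and ATF6. PERK and the related kinases PKR (Eif2ak2), GCN2 (Eif2ak4) and HRI (Eif2ak1) phosphorylate the translation factor eIF2α, which lowers protein synthesis in general but raises translation of the ATF4 mRNA, and ATF4 then switches on genes of amino acid supply and of cell stress. IRE1 splices the Xbp1 mRNA, and XBP1 and cleaved ATF6 raise chaperones and the ER-associated degradation (ERAD) machinery. Lens fiber cells make crystallins in very large amounts and remove their ER together with the other organelles as they mature.

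Differences between the groups were tested with limma on the deposited log2 CPM values, with Benjamini-Hochberg adjustment over all genes of the table. A gene counts as called if the adjusted p was below 0.05, the log2 fold change was more than 0.58 in size and the authors' average level exceeded 1 log2 CPM. Between 40694454 and 44387151 reads per library lay on genes, and 3 reads, the lowest level considered detectable, equalled 0.0609 to 0.0807 CPM. With 3 libraries against 3, an exact permutation test (two-sided) of a single gene cannot go below p = 0.1, which is its value for every gene whose groups did not overlap. Celf1 itself was at 9.95, 9.94 and 9.34 log2 CPM in the controls 1, 2 and 3 and at 8.93, 7.66 and 7.83 log2 CPM in the Celf1cKO libraries 1, 2 and 3. It was lower in all 3 Celf1cKO libraries, with a log2 fold change of -1.60 (SE 0.335, limma adjusted p = 0.0269), and Celf1cKO 1 kept the most. Crystallin genes took 45.8% to 46.9% of the reads in controls and 34.7% to 38.5% in Celf1cKO libraries, and the authors' normalization scaled these library sizes by 0.887 to 0.964 and by 1.06 to 1.12.

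Sequences of the promoters are shown because ATF4, ATF6 and XBP1 are known to act through short elements there. RefSeq promoter windows on GRCm38.p6, from 250 bases before to 50 bases after the transcription start, were at hand for 46 of the 52 genes. The windows were searched on both strands for the CARE element bound by ATF4 (TGATGNAA), for the ERSE element of ATF6 and XBP1 (CCAAT, then CCACG after 9 further bases) and for ERSE-II (ATTGG, then CCACG after 1 further base). ERSE and ERSE-II each hold a CCAAT box, whose count on its own, added after the data were seen, therefore overlaps with theirs. CARE matched in 6 of the 18 PERK/ATF4 target genes with a window and in 3.97% of the 32851 promoters of all genes. The matches follow with the element in capitals and 6 bases on either side, 5′ to 3′ on the strand of the gene, so that a capital run beginning TT is the element on the other strand.
Asns (chr6:7693219-7693238, - strand): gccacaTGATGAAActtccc
Atf3 (chr1:191183430-191183449, - strand): tcgcacTTGCATCAccaagt
Chac1 (chr2:119351043-119351062, + strand): ctgccgTTGCATCActcctg
Nupr1 (chr7:126625567-126625586, - strand): gccagaTTGCATCAgacagg
Trib3 (chr2:152344033-152344052, - strand): tcaggtTTACATCAgccggg
Vldlr (chr19:27216814-27216833, + strand): caatagTTGCATCAgcgctc

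The seventh gene with a CARE match was Herpud1, an ERAD gene. ERSE matched in 7 of the 13 chaperone genes with a window and in 0.119% of the promoters of all genes. It was found in Calr, Canx, Creld2, Dnajc3, Hsp90b1, Hspa5 and Pdia6, and outside the chaperones in Syvn1, Ero1lb and Derl3. The matches of 5 of these chaperone genes are shown with the element in capitals, as examples of the ATF6/XBP1 arm.
Hspa5 (chr2:34772019-34772049, + strand): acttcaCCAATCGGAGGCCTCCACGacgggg
Calr (chr8:84847069-84847099, - strand): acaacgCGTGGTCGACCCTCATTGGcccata
Canx (chr11:50325794-50325824, - strand): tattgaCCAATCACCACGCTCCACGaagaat
Dnajc3 (chr14:118937821-118937851, + strand): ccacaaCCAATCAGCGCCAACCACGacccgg
Pdia6 (chr12:17266485-17266515, + strand): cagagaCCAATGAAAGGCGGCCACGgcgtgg

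ERSE-II matched in Dnajb11 and Herpud1 and in 0.0365% of the promoters of all genes. A CCAAT box, on either strand, was in 69.8% of the members' promoters and in 37.4% of all promoters. The 250 bases before the RefSeq start of the called genes with the largest rises, Ddit3 and Wfs1, and of the only called gene with a fall, Ppp1r15a, are given with any CCAAT box in capitals (ATTGG on the other strand). None of these windows held CARE, ERSE or ERSE-II, which says only that these letters are not in the window. The RefSeq starts differ from the gene spans given below. Most of the Wfs1 stretch lies inside its span, whose 5′ end is at 36989205, and the end of the Ddit3 stretch lies inside its span, which starts at 127290774.
Ddit3 (chr10:127290543-127290792, + strand): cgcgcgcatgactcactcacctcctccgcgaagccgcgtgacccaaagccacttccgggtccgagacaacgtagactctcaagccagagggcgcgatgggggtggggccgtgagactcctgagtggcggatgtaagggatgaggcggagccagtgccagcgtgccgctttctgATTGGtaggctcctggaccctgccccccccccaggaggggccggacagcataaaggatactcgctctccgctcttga
Wfs1 (chr5:36988983-36989232, - strand): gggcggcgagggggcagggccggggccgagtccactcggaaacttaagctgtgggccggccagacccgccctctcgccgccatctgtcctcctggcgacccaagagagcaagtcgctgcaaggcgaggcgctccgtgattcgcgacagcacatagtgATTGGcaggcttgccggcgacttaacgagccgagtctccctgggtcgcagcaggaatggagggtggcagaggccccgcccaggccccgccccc
Ppp1r15a (chr7:45526269-45526518, - strand): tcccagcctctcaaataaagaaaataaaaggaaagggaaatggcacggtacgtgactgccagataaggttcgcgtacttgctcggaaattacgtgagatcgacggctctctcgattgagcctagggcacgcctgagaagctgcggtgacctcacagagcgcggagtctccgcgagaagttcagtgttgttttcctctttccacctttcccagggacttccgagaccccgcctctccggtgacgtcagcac

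Of the 52 genes, 9 were called, 8 elevated in Celf1cKO lenses (Ddit3, Wfs1, Dnajb9, Psat1, Atf5, P4hb, Canx and Eif2ak2) and 1 reduced (Ppp1r15a). Over all 13931 genes 7.39% were called, 4.77% elevated and 2.63% reduced. limma voom on the recovered reads also called 9 of the 52, and a fit blocked by replicate number called 13 (9.18% of all genes). At an adjusted p below 0.05 and any fold, 13 genes were higher and 1 was lower, and 7.85% and 4.03% of all genes were. The libraries of the 2 groups did not overlap for 21 genes that were higher in Celf1cKO lenses (40.4% of the members) and 2 that were lower (3.8%). For all genes these shares were 19.5% and 17.0%. The log2 fold change was above 0 for 36 genes and below 0 for 16, with a median of 0.31 beside -0.035 over all genes. Together the 52 genes took 0.411% to 0.472% of the reads in controls and 0.582% to 0.602% in Celf1cKO libraries. Because crystallin genes took fewer reads in Celf1cKO libraries, the share of the non-crystallin reads is given too, and it was 0.774% to 0.879% and 0.923% to 0.947%. In both measures the groups did not overlap, and the gap was narrower in the second. With libraries scaled by their total reads instead of the authors' normalization, the median of all expressed genes shifted up by 0.23 and 16 of the 52 genes were called, all elevated. When control 2 or Celf1cKO 3 was left out 0 of the 52 genes were called by limma, and 1 gene of the whole table in either case. Without Celf1cKO 1 the count was 14, and without control 3 or Celf1cKO 2 it was 4.

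**Figure D1:**
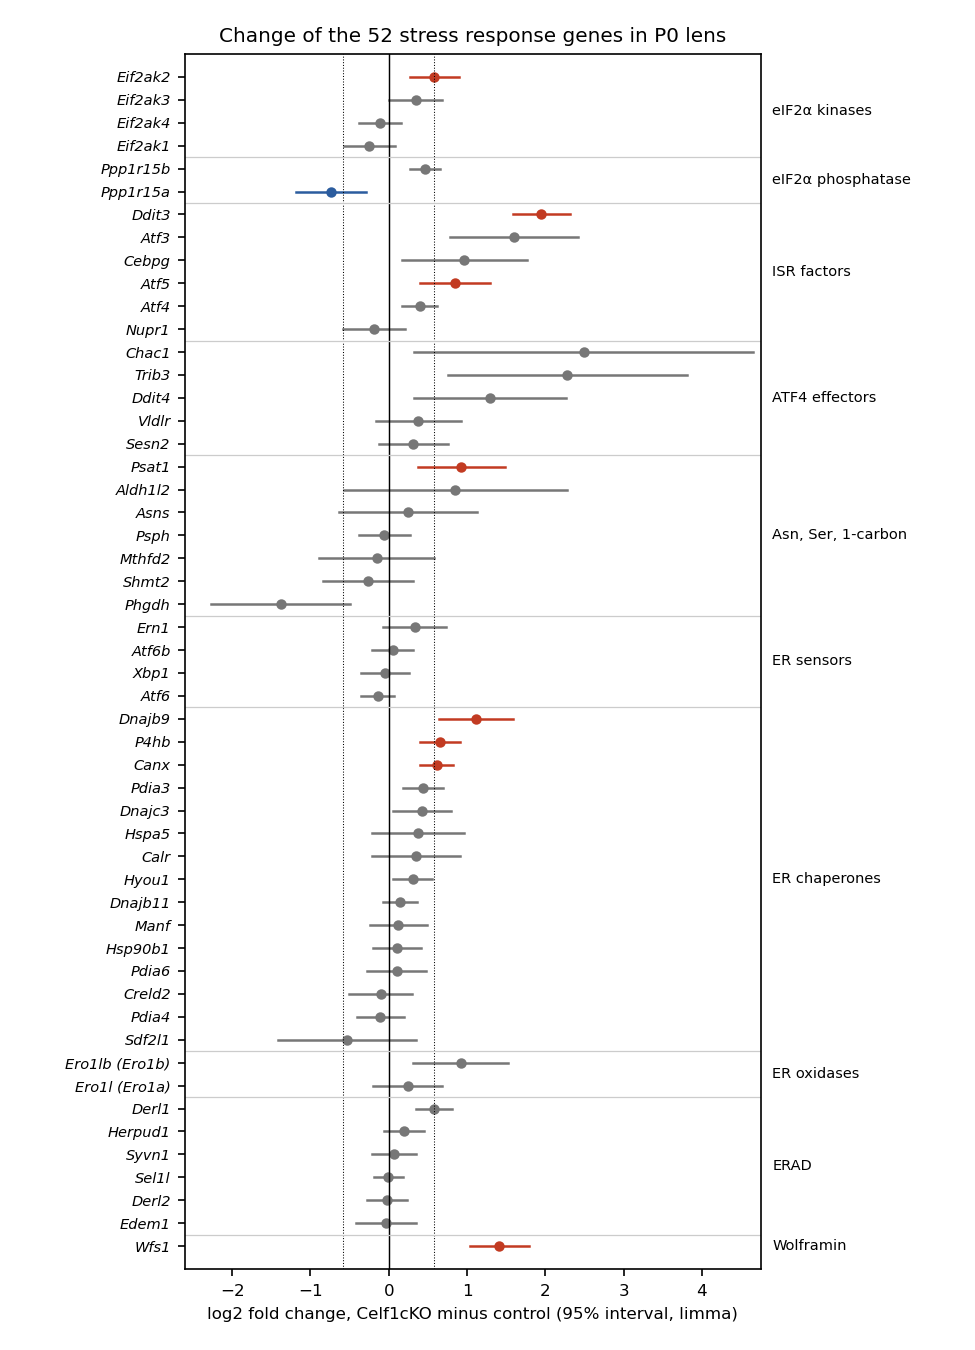
The log2 fold change (Celf1cKO minus control, x axis) of the 52 genes by role (y axis) with its 95% interval from limma, in red for called and elevated, blue for called and reduced, gray for not called, and dotted lines at the 0.58 cut-off on either side of 0. The widest intervals are those of Chac1 and Trib3, whose estimates of 2.49 and 2.28 lie above that of Ddit3 at 1.95.

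Among the kinases and phosphatases that set the phosphorylation of eIF2α, Eif2ak2 rose and Ppp1r15a fell. Eif2ak2 encodes PKR, the kinase activated by double-stranded RNA (chr17:78852564-78882573, - strand). It was at 3.57, 3.87 and 3.62 log2 CPM in controls and 4.15, 4.40 and 4.26 log2 CPM in Celf1cKO libraries. The groups did not overlap, and the log2 fold change of 0.58 (SE 0.132, limma adjusted p = 0.0340) was just above the cut-off. The call was lost in 10 of 20 alternative settings, which include a log2 fold change cut-off of 1 that a rise of 0.58 cannot pass. Among the 10 were median centring (0.56) and leaving out any library but Celf1cKO 1 (0.52 to 0.68, adjusted p 0.0654 to 0.136). Eif2ak3, which encodes PERK, was at 3.37, 3.37 and 3.12 log2 CPM in controls and 3.75, 3.66 and 3.47 log2 CPM in Celf1cKO libraries. All Celf1cKO libraries were higher, but the log2 fold change of 0.34 (SE 0.144, limma adjusted p = 0.161) was not called. Eif2ak4 and Eif2ak1 had log2 fold changes of -0.11 and -0.25, with groups that overlapped.

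Ppp1r15a (GADD34, chr7:45522916-45526268, - strand) is the stress-induced subunit that brings protein phosphatase 1 to eIF2α, and is itself known as an ATF4 target. Its level was 5.15, 5.33 and 5.50 log2 CPM in controls and 5.01, 4.36 and 4.41 log2 CPM in Celf1cKO libraries. Every Celf1cKO library was below every control, and Celf1cKO 1 lay only a little below control 1. The level fell by 0.74 on the log2 scale (SE 0.189, limma adjusted p = 0.0476). In the fit blocked by replicate number the adjusted p was 0.0539, and the call was lost when any library but Celf1cKO 1 was left out (adjusted p 0.0825 to 0.165). Ppp1r15b, the constitutive counterpart, went the other way, from 5.76, 5.88 and 5.72 to 6.27, 6.23 and 6.24 log2 CPM. Its log2 fold change of 0.46 (SE 0.0816, limma adjusted p = 0.0174) was under the fold cut-off.

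The transcription factors of the integrated stress response held the largest called rise, that of Ddit3. Ddit3 (chr10:127290774-127296288, + strand) encodes CHOP, the factor linked to the switch from adaptation to cell death. It stood at 2.33, 2.37 and 2.29 log2 CPM in controls, 191 reads in each library, and at 4.02, 4.49 and 4.35 log2 CPM in Celf1cKO libraries, 693 to 1087 reads. The 3 controls were nearly alike and far below all Celf1cKO libraries, a 3.87-fold rise (log2 fold change 1.95, SE 0.157, limma adjusted p = 0.00855). The call was lost only narrowly when control 2 or Celf1cKO 3 was left out (adjusted p = 0.0512 and 0.0607), with log2 fold changes of 1.97 and 1.92. Ddit3 shares 68 of its 1713 exon bases with Mars on the other strand, and 105 with a further annotation entry of the same name on its own strand.

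Atf4, whose protein is set mainly by translation, was at 7.72, 7.83 and 7.88 log2 CPM in controls and 8.07, 8.24 and 8.31 log2 CPM in Celf1cKO libraries. The groups did not overlap, and the log2 fold change of 0.39 (SE 0.0934, limma adjusted p = 0.0385) was under the fold cut-off. Atf5 (chr7:44812256-44816658, - strand), a factor translated under stress in the manner of ATF4, was at 5.72, 5.86 and 6.31 log2 CPM in controls and 6.52, 7.08 and 6.84 log2 CPM in Celf1cKO libraries. Control 3 came close to Celf1cKO 1 but did not reach it, and Atf5 rose 1.80-fold (log2 fold change 0.85, SE 0.191, limma adjusted p = 0.0335). That call was lost without control 1, control 2, Celf1cKO 2 or Celf1cKO 3 (adjusted p 0.0873 to 0.122). Atf3, a stress-induced repressor and partner of ATF4, was barely expressed in controls, at 0.29, -0.71 and -0.45 log2 CPM, beside 1.74, 1.06 and 1.14 log2 CPM in Celf1cKO libraries. These are 21 to 45 reads against 99 to 141. Its log2 fold change of 1.60 (SE 0.352, limma adjusted p = 0.0313) passed the p threshold, and its average level of 0.77 log2 CPM was too low for a call.

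Cebpg, a dimer partner of ATF4, was at 2.93, 3.93 and 4.09 log2 CPM in controls and 4.11, 4.96 and 4.78 log2 CPM in Celf1cKO libraries. Control 3 lay just under Celf1cKO 1, and the log2 fold change of 0.97 had a limma adjusted p of 0.109, or 0.0170 in the blocked fit. Nupr1, a small stress-responsive chromatin protein, had a log2 fold change of -0.19 with overlapping groups. Per kilobase of exon, it was the most abundant of the 52 transcripts, at 401 ± 95 RPKM (SD, n = 3) in controls and 346 ± 24 RPKM in Celf1cKO lenses.

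**Figure D2:**
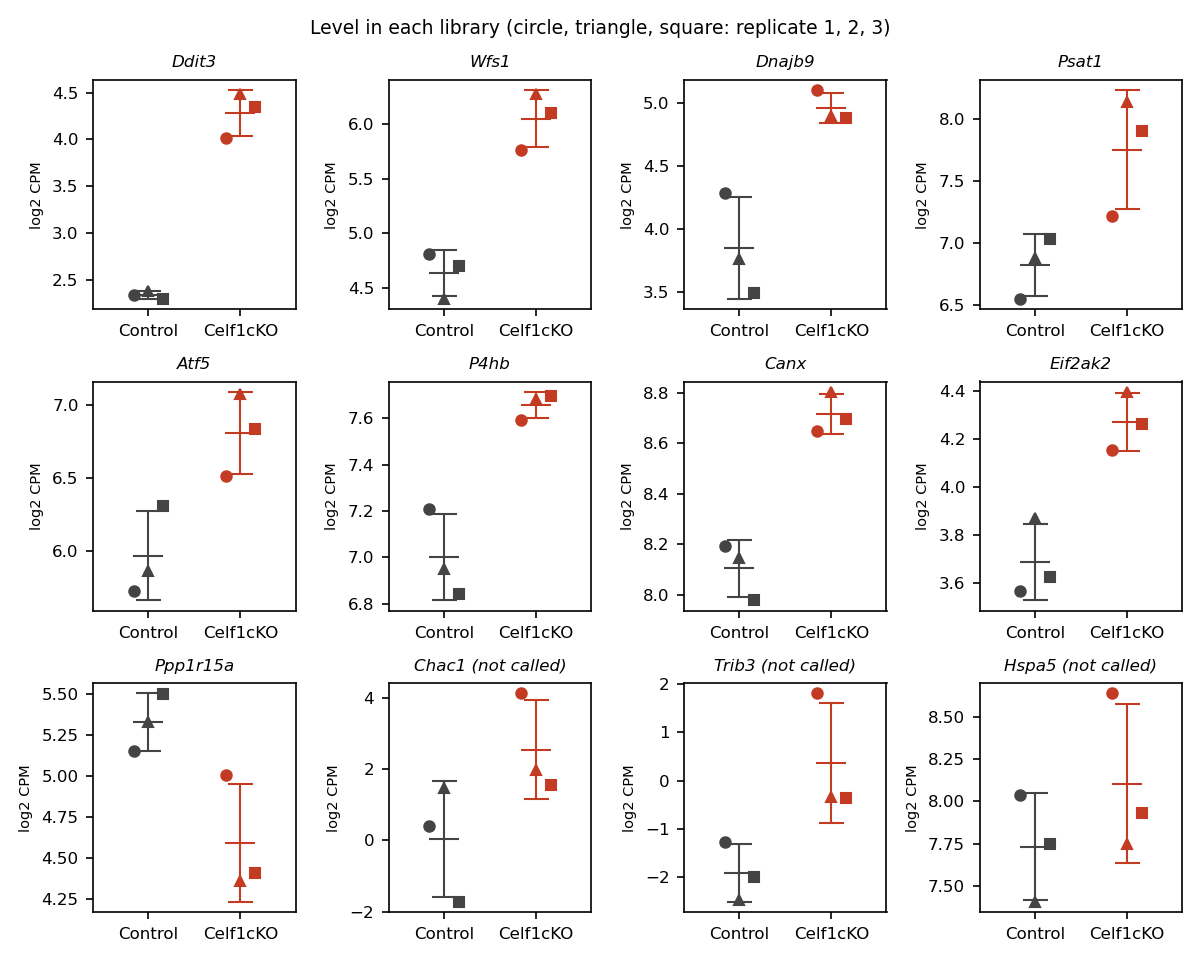
Level in log2 CPM (y axis, a separate range in each panel) of 12 genes in the 3 control and 3 Celf1cKO libraries, with the group mean and SD as bars and a symbol for each replicate number. In Ddit3 and Wfs1 the groups are far apart, whereas in Hspa5 they overlap and Celf1cKO 1 stands above the other 5 libraries.

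The effector genes downstream of ATF4 had the largest estimates and the widest scatter. None of the 5 was called by limma, while 3 had an unadjusted p below 0.05 and limma voom called 0. Over all 13931 genes, 4171 had an unadjusted p below 0.05 in limma. Chac1, which degrades glutathione and is a sensitive ATF4 reporter, was at 0.41, 1.45 and -1.73 log2 CPM in controls and 4.11, 1.95 and 1.54 log2 CPM in Celf1cKO libraries. These are 49, 100 and 10 reads against 742, 186 and 141. The groups did not overlap, but control 2 came within 0.1 log2 CPM of Celf1cKO 3, and the value of Celf1cKO 1 was far above the rest. The log2 fold change was 2.49 (SE 0.926, limma adjusted p = 0.121), 1.71 without Celf1cKO 1 and 1.61 without control 3. In the fit blocked by replicate number the adjusted p was 0.0471. Trib3, a pseudokinase that feeds back on ATF4 and CHOP, was at -1.28, -2.46 and -2.00 log2 CPM in controls and 1.80, -0.34 and -0.36 log2 CPM in Celf1cKO libraries. That is 5 to 14 reads against 36 to 148, the highest again in Celf1cKO 1, with a log2 fold change of 2.28 (SE 0.653, limma adjusted p = 0.0641) that became 1.56 without that library. In the blocked fit its adjusted p was 0.0224, and its average level of -0.01 log2 CPM was below the cut-off for a call.

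Ddit4 (REDD1), an inhibitor of mTORC1, was at 2.24, 3.31 and 3.44 log2 CPM in controls and 3.71, 5.04 and 4.12 log2 CPM in Celf1cKO libraries. Here Celf1cKO 2 was highest, and the log2 fold change of 1.29 had a limma adjusted p of 0.0864, or 0.0214 in the blocked fit. Vldlr, a lipoprotein receptor that ATF4 is known to raise, and Sesn2, a leucine sensor, had log2 fold changes of 0.38 and 0.32 with overlapping groups.

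The enzymes of asparagine, serine and one-carbon metabolism did not move together. Of 7, 1 was called, 3 had a log2 fold change above 0 and the median was -0.055. Psat1 (chr19:15904678-15947337, - strand), the aminotransferase of serine synthesis, was at 6.55, 6.88 and 7.04 log2 CPM in controls and 7.22, 8.14 and 7.90 log2 CPM in Celf1cKO libraries. The lowest Celf1cKO library, number 1, was just above control 3, and Psat1 rose 1.90-fold (log2 fold change 0.93, SE 0.238, limma adjusted p = 0.0473). The call was lost without any library but Celf1cKO 1 (adjusted p 0.0883 to 0.158). Phgdh, which catalyzes the step before it, was at 5.98, 6.26 and 6.61 log2 CPM in controls and 5.70, 4.07 and 4.94 log2 CPM in Celf1cKO libraries. All Celf1cKO libraries were lower, with a log2 fold change of -1.38 (SE 0.379, limma adjusted p = 0.0573, or 0.0471 in the blocked fit). Psph, the last enzyme of the same pathway, had a log2 fold change of -0.055.

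Asns, asparagine synthetase and a classical reporter of ATF4, was at 3.56, 3.37 and 4.92 log2 CPM in controls and 4.04, 4.34 and 4.19 log2 CPM in Celf1cKO libraries. Control 3 exceeded every Celf1cKO library and the other controls lay below them all, so the log2 fold change of 0.24 (SE 0.377, limma adjusted p = 0.706) was smaller than its error. Without control 2 its sign turned, at -0.05. Control 3 was the highest control for all 7 of these enzymes, and for 22 of the 52 members, beside 4880 of all 13931 genes. The mitochondrial Aldh1l2, at 0.71, 0.56 and 2.90 log2 CPM in controls, showed the same library apart, beside 1.88, 2.70 and 2.14 log2 CPM in Celf1cKO libraries. The remaining enzymes, Shmt2 and Mthfd2, had log2 fold changes of -0.26 and -0.16.

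The ER sensors and their factors gave no call. Of Ern1, Atf6, Atf6b and Xbp1, limma called 0, 0 had an unadjusted p below 0.05 (4171 of all 13931 genes did) and limma voom called 0. Xbp1 was at 4.77, 4.57 and 4.83 log2 CPM in controls and 4.88, 4.62 and 4.54 log2 CPM in Celf1cKO libraries. The groups overlapped, and the log2 fold change of -0.045 (SE 0.130, limma adjusted p = 0.848) became 0.18 with scaling by total reads. Counts per gene do not separate the spliced from the unspliced Xbp1 mRNA. Atf6 was at 5.57, 5.73 and 5.81 log2 CPM in controls and 5.57, 5.55 and 5.56 log2 CPM in Celf1cKO libraries, with a log2 fold change of -0.14 (SE 0.0916, limma adjusted p = 0.329) that became 0.083 with scaling by total reads. Ern1 was at 2.88, 3.31 and 3.24 log2 CPM in controls and 3.28, 3.64 and 3.51 log2 CPM in Celf1cKO libraries. Its groups overlapped by a single pair of libraries, control 2 above Celf1cKO 1, and the log2 fold change was 0.33 (SE 0.171, limma adjusted p = 0.238). Atf6b had a log2 fold change of 0.049.

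Among the ER chaperones and foldases that ATF6 and XBP1 are known to raise, Dnajb9, P4hb and Canx rose. These were the 3 called of 15 genes, and 4 of the 15 had an adjusted p below 0.05. The log2 fold change was above 0 for 12 of the 15, beside 46.4% of all genes, and the groups did not overlap for 6, all higher, beside 19.5% of all genes. Dnajb9 (ERdj4, chr12:44205559-44210326, - strand), a co-chaperone that restrains IRE1, had the largest rise. It was at 4.29, 3.76 and 3.49 log2 CPM in controls and 5.10, 4.90 and 4.88 log2 CPM in Celf1cKO libraries. The Celf1cKO libraries lay close together above the scattered controls, a 2.16-fold rise (log2 fold change 1.11, SE 0.201, limma adjusted p = 0.0187). The call was lost without control 2, control 3 or Celf1cKO 3 (adjusted p = 0.0750, 0.0508 and 0.0828).

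P4hb (chr11:120560298-120573253, - strand), the protein disulfide isomerase, was at 7.21, 6.95 and 6.84 log2 CPM in controls and 7.59, 7.68 and 7.70 log2 CPM in Celf1cKO libraries, without overlap. Its log2 fold change was 0.66 (SE 0.107, limma adjusted p = 0.0150). Leaving out control 2 or Celf1cKO 3 gave adjusted p values of 0.0655 and 0.0828, and leaving out control 3 took the fold change to the cut-off, which it did not pass. Canx (chr11:50293961-50325673, - strand), the membrane lectin chaperone calnexin, was at 8.19, 8.14 and 7.98 log2 CPM in controls and 8.65, 8.80 and 8.70 log2 CPM in Celf1cKO libraries. The gap between the groups was wider than the spread within either, with a log2 fold change of 0.61 (SE 0.0906, limma adjusted p = 0.0127). Without control 3 or Celf1cKO 2 it was below the cut-off, at 0.55 and 0.57, and without control 2 or Celf1cKO 3 the adjusted p was 0.0554 and 0.0748. Pdia3, the disulfide isomerase that works with calnexin, passed the p threshold at a log2 fold change of 0.44 (SE 0.107, limma adjusted p = 0.0419).

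Hspa5 (BiP), the main ER chaperone and the usual marker of ATF6 activity, was at 8.04, 7.40 and 7.75 log2 CPM in controls and 8.64, 7.75 and 7.93 log2 CPM in Celf1cKO libraries. Celf1cKO 1 was the highest of the 6 and the other Celf1cKO libraries lay among the controls. The log2 fold change of 0.37 had a 95% interval from -0.21 to 0.96 (limma adjusted p = 0.354). Hspa5 was higher in the Celf1cKO library of each of the 3 replicate numbers, and in the blocked fit the SE was 0.103 instead of 0.251 and the adjusted p was 0.0608, so it was not called in either fit. Calr, Hsp90b1 and Pdia6, further abundant chaperones, had log2 fold changes of 0.35, 0.10 and 0.10 and overlapped. Dnajc3, Hyou1, Dnajb11, Manf, Creld2 and Pdia4 lay between -0.11 (Pdia4) and 0.43 (Dnajc3), and of these Hyou1 and Dnajb11 did not overlap. The lowest in the group was Sdf2l1 at -0.53, a low transcript of 0.31 log2 CPM on average. Celf1cKO 1 was the highest of its group for 10 of the 15 chaperones and for 25 of the 52 members, beside 5701 of all 13931 genes.

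**Figure D3:**
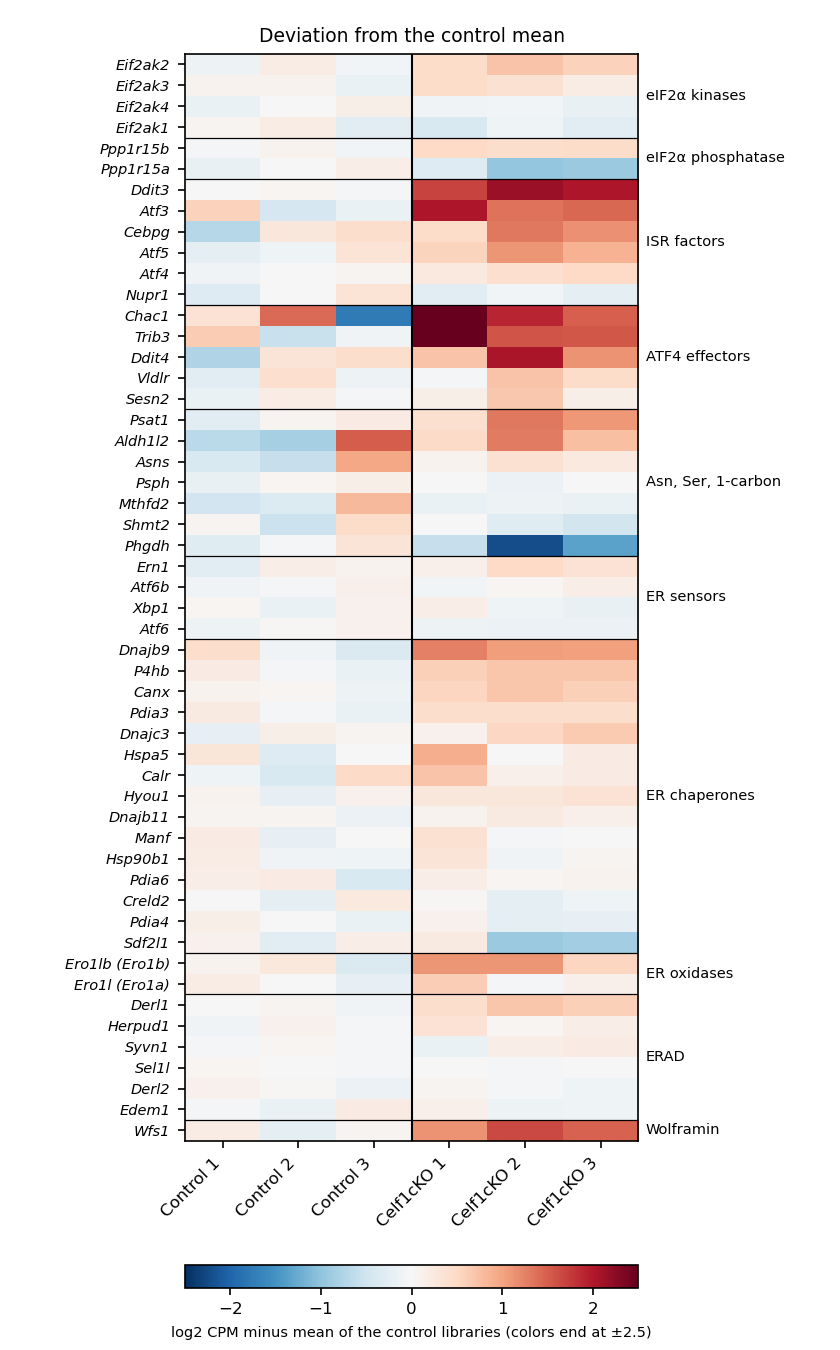
Deviation of each library (columns) from the control mean in log2 CPM for the 52 genes (rows, by role), red above and blue below, with colors that end at 2.5 on either side of 0. Control 3 is red in the asparagine, serine and one-carbon block, and Celf1cKO 1 is the darkest of its group in Chac1, Trib3 and Hspa5.

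The ER oxidases that recharge disulfide isomerases, Ero1a and Ero1b, had log2 fold changes of 0.24 and 0.92. limma called 0 of these, 1 had an unadjusted p below 0.05 (4171 of all 13931 genes did) and limma voom called 0. Ero1b was at 1.41, 1.58 and 0.96 log2 CPM in controls and 2.42, 2.43 and 1.86 log2 CPM in Celf1cKO libraries, without overlap. Its limma adjusted p was 0.0616 (SE 0.259), or 0.0302 in the blocked fit. Of the 6 ERAD genes limma called 0, 1 had an unadjusted p below 0.05 and limma voom called 0. That gene was Derl1, which forms part of the channel for misfolded proteins. It was at 5.63, 5.68 and 5.53 log2 CPM in controls and 6.05, 6.30 and 6.21 log2 CPM in Celf1cKO libraries, without overlap. Its log2 fold change was 0.576 (SE 0.0980, limma adjusted p = 0.0162), just short of the cut-off. The other ERAD genes, Herpud1, Syvn1, Sel1l, Derl2 and Edem1, lay between -0.033 and 0.19.

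Wfs1 (chr5:36966104-36989205, - strand) encodes wolframin, an ER membrane protein whose loss causes Wolfram syndrome. It was at 4.81, 4.39 and 4.69 log2 CPM in controls and 5.76, 6.28 and 6.10 log2 CPM in Celf1cKO libraries, a 2.67-fold rise (log2 fold change 1.41, SE 0.164, limma adjusted p = 0.00925). The lowest Celf1cKO library was clearly above the highest control. As for Ddit3, the call was lost without control 2 or Celf1cKO 3 (adjusted p = 0.0512 and 0.0607), with log2 fold changes of 1.30 and 1.39. Per kilobase of exon Wfs1 went from 6.58 ± 0.95 to 17.6 ± 3.1 RPKM (SD, n = 3) and Ddit3 from 2.91 ± 0.08 to 11.4 ± 1.9 RPKM. On the same scale Atf4 was far more abundant, at 95.4 ± 5.3 RPKM in controls and 126 ± 11 RPKM in Celf1cKO lenses. Trib3, at 0.110 ± 0.056 RPKM in controls, was the least abundant member.

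The PERK/ATF4 targets and the ATF6/XBP1 chaperone targets were then set side by side. Of the 18 PERK/ATF4 targets in the table, 3 were called and elevated (Ddit3, Psat1 and Atf5) and 1 was called and reduced (Ppp1r15a). Of the 15 chaperones, 3 were called and elevated (Dnajb9, P4hb and Canx) and 0 were reduced. Among all genes 4.77% were called and elevated and 2.63% were called and reduced. In the fit blocked by replicate number, 7 ATF4 targets were called, 6 elevated (Ddit3, Psat1, Atf5, Chac1, Ddit4 and Cebpg) and 1 reduced (Phgdh, with Ppp1r15a lost), and the chaperones again gave 3, all elevated. That fit called 9.18% of all genes. The difference between the lists was not tested. The groups did not overlap for 8 ATF4 targets that were higher and 2 that were lower. For the chaperones these counts were 6 and 0, and for all genes the shares were 19.5% and 17.0%. The mean log2 CPM over the ATF4 targets was 3.72, 3.87 and 4.13 in controls and 4.62, 4.57 and 4.41 in Celf1cKO libraries. Over the chaperones it was 6.33, 6.11 and 6.17 in controls and 6.62, 6.38 and 6.43 in Celf1cKO libraries. By this mean, each Celf1cKO library was above each control in both lists, by a narrow margin for the chaperones. The sum, which gives abundant genes such as Nupr1 more weight, did overlap for the ATF4 targets. It was 1245, 1545 and 1917 CPM in controls and 1440, 1788 and 1588 CPM in Celf1cKO libraries. For the chaperones the sums did not overlap, at 2591, 2322 and 2236 CPM in controls and 3197, 2779 and 2849 CPM in Celf1cKO libraries. The median log2 fold change was 0.35 for the 16 ATF4 targets with an average above 1 log2 CPM and 0.33 for the 14 such chaperones, beside 0.004 for all 10640 such genes. The difference of these medians was 0.02. On another measure, the mean log2 CPM of these ATF4 targets minus that of these chaperones, the pooled SD between libraries of a group was 0.286. That SD is not an error of the 0.02. With the weakly expressed genes kept, a choice made after seeing the data, the medians were 0.61 and 0.31 and their difference was 0.31. Without Celf1cKO 1 the medians were 0.49 and 0.17 and the difference was 0.32. Without control 1 or Celf1cKO 2 the difference had the opposite sign, at -0.075 and -0.16. Single genes ranged from -1.38 (Phgdh) to 2.49 (Chac1) for the ATF4 targets and from -0.53 (Sdf2l1) to 1.11 (Dnajb9) for the chaperones.

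Beside 7.39% of all genes called, the calls among genes with a promoter element shown above were near the background, and nothing is read from them. Of the 7 genes with a CARE match limma called 0, 3 had an unadjusted p below 0.05 (4171 of all 13931 genes did) and limma voom called 0. The log2 fold changes of these genes ran from -0.19 (Nupr1) to 2.49 (Chac1), with Asns at 0.24. Of the 9 genes in the table with an ERSE match 1 was called, Canx, and the range ran from -0.11 (Creld2) to 0.92 (Ero1b).

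**Figure D4:**
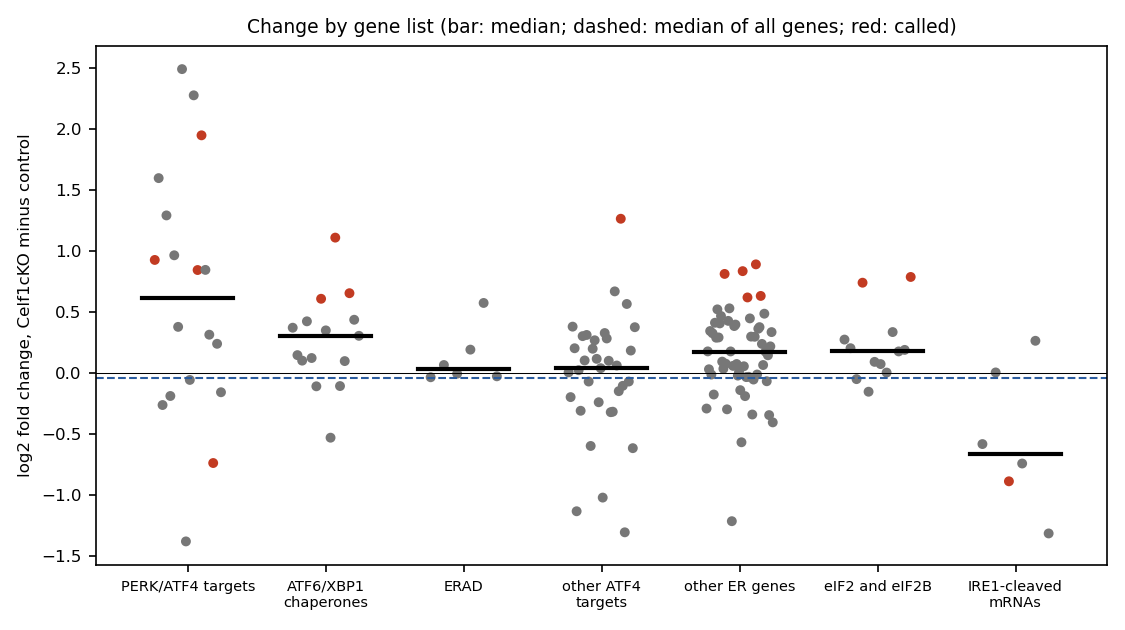
The log2 fold change (Celf1cKO minus control, y axis) of each gene, with a point per gene in 7 lists (x axis), called genes in red, the list median as a bar and the median of all genes as a dashed line. The bars include the weakly expressed genes and stand at 0.61 for the ATF4 targets and 0.31 for the chaperones. Over the genes with an average above 1 log2 CPM these medians were 0.35 and 0.33. The ATF4 targets have the widest range, and the median of the other ATF4 targets, 0.04, is close to the dashed line at -0.035.

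Further genes of the same pathways, outside the 54, were counted in the same fit, which called 7.39% of all genes (9.18% with the block). Of 35 other ATF4 targets in the table, such as amino acid transporters and tRNA synthetases, 1 was called and elevated (2 in the blocked fit) and the median log2 fold change was 0.04. The gene called without the block was Slc1a4, a neutral amino acid transporter, with a log2 fold change of 1.27 (SE 0.300, limma adjusted p = 0.0383) and levels of 5.05 to 5.74 log2 CPM in controls and 5.92 to 6.95 log2 CPM in Celf1cKO libraries. For 56 other genes of ER folding, translocation and the unfolded protein response, the median was 0.18. The groups did not overlap for 27 that were higher (48.2%) and 5 that were lower (8.93%), beside 19.5% and 17.0% of all genes. Called were 5 (8.93%, near the share of all genes), all elevated. The largest of these were Rpn1, a subunit of the oligosaccharyltransferase (0.89), Creb3, an ER-bound transcription factor (0.84), Fkbp2, an ER prolyl isomerase (0.81), and Spcs1, a signal peptidase subunit (0.63). Of 12 genes of eIF2, its exchange factor eIF2B and their regulators, 2 were called. Impact, an inhibitor of GCN2, rose by a log2 fold change of 0.79 (SE 0.131, limma adjusted p = 0.0154) and Eif2s3x, the γ subunit of eIF2, by 0.74 (SE 0.112, limma adjusted p = 0.0133). Of 6 mRNAs known to be cut by IRE1, Sparc was called and fell by 0.89 on the log2 scale (SE 0.152, limma adjusted p = 0.0162), and the list median was -0.66. The blocked fit called 2 of these 6, both reduced. The log2 fold change was below 0 for 4 of the 6 and above 0 for 2. Their mean log2 CPM was 4.31, 4.13 and 4.38 in controls and 3.96, 3.18 and 4.05 in Celf1cKO libraries, with Celf1cKO 2 lowest. A part of IRE1 cleavage in these levels was not tested.

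The summed levels of the lens fiber, lens epithelium and mesenchymal markers did not overlap between the groups and were lower in Celf1cKO lenses, whereas those of the other cell types did overlap. Lens fiber markers, 10 of 11 of them in the table, had summed levels of 214178 to 239825 CPM in controls and 166202 to 176702 CPM in Celf1cKO libraries, and 4 of them (Bfsp1, Gja3, Birc7 and Dnase2b) were called and reduced. The other 6 were not called. The log2 fold change was below 0 for 8 of the 10 and above 0 for 2 (at most 0.20), with a median of -0.50. The 5 lens epithelium markers summed to 388.5 to 445.4 CPM and to 135.8 to 334.4 CPM, and Foxe3 was called and reduced. The 5 endothelial markers summed to 75.3 to 91.2 CPM and to 20.8 to 88.7 CPM, and the 4 of 6 mesenchymal markers in the table to 79.5 to 110.0 CPM and to 18.2 to 63.3 CPM, of which Pdgfra was called and reduced. Only 1 of these 4 mesenchymal markers had an average above 1 log2 CPM. Their mean log2 CPM, unlike their sum, did overlap, at 1.80, 1.14 and 2.20 in controls and 1.75, -0.13 and 0.62 in Celf1cKO libraries. In the epithelial, endothelial and mesenchymal sums Celf1cKO 1 was the highest of its group and Celf1cKO 2 the lowest. Macrophage markers, 6 of 8 in the table, stayed between 4.45 and 9.88 CPM, retina and pigment epithelium markers, 4 of 7, between 2.50 and 16.1 CPM, and 1 of 5 red blood cell markers between 0.0881 and 1.39 CPM. None of the 6 corneal and skin epithelium markers is in the table used here. In pooled lenses, fewer cells of a type and less RNA per cell cannot be told apart. The part of these cell types in the changes of the stress response genes was not tested.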

How the data were processed

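RNA from whole P0 lenses was sequenced by the authors as strand-specific paired-end libraries. Per the labels and the study's methods, reads were aligned to GRCm38.p6 with STAR 2.7.8a, unique reads were counted per gene with featureCounts 2.0.0, genes of very low level were removed and libraries were normalized with edgeR. The authors deposited log2 CPM values with a small prior count for each library. The same table holds their own comparison (log2 fold change, F score, p-value and FDR), which was not used. Only their average log2 CPM was, as an expression cut-off. The strand setting of the counting is not given in the sources used here. Reads were worked back from the deposited steps, and 100% came out whole (tolerance 0.05), with 40694454 to 44387151 per library.

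Samples were grouped by their labels. limma 3.58.1 in R 4.3.3 (empirical Bayes with a variance trend, prior degrees of freedom 3.4) was run on all 13931 genes without a block, with Benjamini-Hochberg adjustment. Intervals are 95% and come from this fit. Called means an adjusted p below 0.05, an absolute log2 fold change above 0.58 and an average above 1. The 54 members, the lists and the tests were chosen with earlier results of these data known. Values in each library were given for called members and for the sensors, factors and classical reporters of the branches, and the others are given by role. Atf3, Cebpg, Ddit4, Phgdh, Ero1b, Ppp1r15b, Derl1, Pdia3, Nupr1 and Aldh1l2 were picked for description once their values were known. Deviations from the group mean were correlated between libraries of like number (correlations across genes of 0.302, 0.417 and 0.348). Between libraries of unlike number the correlations were -0.388 to 0.0314. No source describes a pairing. The main fit does not pair the libraries, and a block for each replicate number was fitted only as an alternative. Whether the 3 libraries of a group came from different litters is not stated, so p-values measure the spread between these pools only.

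RPKM here is CPM per kilobase of exon in GENCODE M21, computed from the recovered reads. Motifs were searched in RefSeq promoter windows. Alternatives were a fit with a block for each replicate number, robust empirical Bayes, a constant prior variance, 4 other scalings, log2(CPM + 1), limma voom, expressed genes only, other cut-offs and each library left out.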

Additional observations from a re-analysis of the deposited data

How the results depend on the processing

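With 3 libraries a group, the calls rest on few degrees of freedom, and reads per gene limit only the lowest members. Without a variance trend 421 genes of the table and 3 members were called, 3 elevated and 0 reduced. A log2 fold change cut-off of 1 gave 387 genes and 3 members, 3 elevated and 0 reduced, and no fold cut-off gave 1550 genes. Scaling by total reads gave 1867 genes and 16 members, 16 elevated and 0 reduced, medians of 0.57 for the PERK/ATF4 targets and 0.56 for the ATF6/XBP1 chaperones, and the opposite sign for Atf6 (0.083) and Xbp1 (0.18). Scaling without crystallin genes left 0 reduced members, and quantile normalization, expressed genes only and an adjusted p below 0.1 gave 2. Keeping all listed genes, chosen after seeing the data, gave a PERK/ATF4 median of 0.61 and a difference of medians of 0.31. The cause was not tested.

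With 1 library left out, the table gave 1 to 1916 called genes and the members 0 to 14, of which 0 to 12 were elevated and 0 to 2 reduced. The PERK/ATF4 median was 0.19 to 0.52, that of the chaperones 0.17 to 0.36 and their difference -0.16 to 0.32. Asns ranged from -0.048 (without control 2) to 0.73 and Xbp1 from -0.15 to 0.027 (above 0 without control 3 or Celf1cKO 3). In the fit with a replicate block, 1279 genes of the table (9.18%) and 13 members were called. The block ended the call of Ppp1r15a and added Chac1, Ddit4, Cebpg, Ero1b and Phgdh, and it changed no other call among the members. Over the 26 members followed singly, the other settings gave the same side of the threshold and the same direction in 316 cases, a lost call in 22, a gained call in 22 and an opposite sign in 2.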
